A study of Mus musculus with 6 samples.

Results

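Matrix proteases and their inhibitors were described here as a set of 10 named genes, found by symbol among the 32245 symbols of the count files. They were 4 matrix metalloproteinases (Mmp2, Mmp3, Mmp11 and Mmp14), 2 secreted proteases of the ADAMTS family (Adamts1 and Adamts5) and 4 tissue inhibitors of metalloproteinases (Timp1, Timp2, Timp3 and Timp4). Polyadenylated RNA of primary cardiomyocytes isolated from newborn wild-type mouse hearts gave 6 sequencing libraries, and every one of the 3 treatments had 2. Cells received BMP2 together with dorsomorphin (BMP2+DM), BMP2 alone, or phosphate-buffered saline (PBS), and no group received dorsomorphin alone. BMP2 is a secreted growth factor whose receptors phosphorylate SMAD proteins. The small molecule dorsomorphin blocks BMP receptor kinases and also inhibits AMP-activated protein kinase. The sources used here do not give the dose or the length of treatment.

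Matrix metalloproteinases are zinc enzymes that are made as inactive precursors and cleave collagens, fibronectin and other proteins outside the cell. ADAMTS proteases cut large proteoglycans such as versican and aggrecan, and in the mouse Adamts1 and Adamts5 shape the versican-rich matrix of the developing heart. TIMP proteins bind the active site of these enzymes. TIMP3 differs from the other inhibitors in that it stays bound to the matrix and is also an inhibitor of ADAMTS5, while TIMP2 takes part, with the membrane-anchored MMP14, in the activation of the MMP2 precursor.

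The promoters of 3 genes are shown first. Timp1 and Timp3 were the inhibitors that changed most, and Adamts1 lies near Adamts5 on the same chromosome, with which it shared its order of treatments. Of the 10 genes, 8 had an entry in the RefSeq promoter table (build GRCm38.p6). Mmp2 and Adamts5 are named only. Each sequence runs 5′ to 3′ from 250 bases before the transcription start to 50 bases after it. Timp1 was read at chrX:20869916-20870215 on the plus strand, Timp3 at chr10:86300162-86300461 on the plus strand, and Adamts1 at chr16:85803064-85803363 on the minus strand. Capitals mark matches, on either strand, to 4 short motifs: the AP-1 site TGANTCA, the GC-rich BMP-SMAD element GGCGCC, the TATA box TATAAA and the PEA3 site of ETS factors AGGAAG.

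Timp1: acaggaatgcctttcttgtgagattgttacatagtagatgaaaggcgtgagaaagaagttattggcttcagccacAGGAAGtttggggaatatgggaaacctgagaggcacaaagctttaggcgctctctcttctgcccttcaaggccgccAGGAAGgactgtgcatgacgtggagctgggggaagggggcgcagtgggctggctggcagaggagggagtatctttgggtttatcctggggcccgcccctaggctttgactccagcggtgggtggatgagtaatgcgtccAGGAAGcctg
Timp3: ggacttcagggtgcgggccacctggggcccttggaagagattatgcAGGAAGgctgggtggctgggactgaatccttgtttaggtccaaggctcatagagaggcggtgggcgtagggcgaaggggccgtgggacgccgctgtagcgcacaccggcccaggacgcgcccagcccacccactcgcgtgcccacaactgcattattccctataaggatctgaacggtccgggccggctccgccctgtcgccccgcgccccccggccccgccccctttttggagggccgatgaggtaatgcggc
Adamts1: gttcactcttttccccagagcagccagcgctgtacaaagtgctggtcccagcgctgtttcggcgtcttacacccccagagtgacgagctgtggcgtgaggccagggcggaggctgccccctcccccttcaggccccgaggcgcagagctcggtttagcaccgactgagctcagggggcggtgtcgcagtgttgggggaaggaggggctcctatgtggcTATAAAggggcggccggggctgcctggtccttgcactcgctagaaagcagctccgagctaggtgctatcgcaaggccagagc

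In Timp1 the capitals are 3 matches to AGGAAG, in Timp3 they are 1 match to AGGAAG that begins 204 bases before the start, and in Adamts1 they are 1 TATA box that begins 32 bases before the start. Of 32851 promoters of the same length, 35.4% held AGGAAG and 13.6% held TATAAA. The AP-1 site, held by 7.81% of all promoters, was found in the Mmp3 promoter, 46 bases before the start. The GC-rich BMP-SMAD element, held by 11.9% of all promoters, was found in the Mmp11 promoter, 30 bases before the start. No match overlapped another motif. These matches describe the letters of the window only.

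Libraries held 10106667 to 14366042 counts on genes, and the 10 genes took between 0.23% and 0.301% of them. Cardiomyocyte markers were abundant in every library, and markers of other cells were also present. The values below are CPM, counts per 1000000 gene counts after TMM scaling. The summed level of 10 cardiomyocyte markers was 28227 to 28571 CPM with BMP2+DM, 25686 to 25920.3 CPM with BMP2 and 33321 to 33742 CPM with PBS. For 10 fibroblast markers the sums were 11965 to 12475 CPM with BMP2+DM, 13768 to 13963 CPM with BMP2 and 12791 to 13635 CPM with PBS. For 10 smooth muscle and pericyte markers they were 2236 to 2346 CPM with BMP2+DM, 2164 to 2227 CPM with BMP2 and 3408 to 3465 CPM with PBS. Endothelial markers (11 genes) summed to 237 to 252 CPM with BMP2+DM, 371 to 375 CPM with BMP2 and 416 to 426 CPM with PBS. Epicardial and mesothelial markers (11 genes) summed to 182 to 202 CPM with BMP2+DM, 166 to 174 CPM with BMP2 and 254 to 263 CPM with PBS. Leukocyte markers (11 genes) summed to 64.5 to 67.1 CPM with BMP2+DM, 70.8 to 71.0 CPM with BMP2 and 94.3 to 95.2 CPM with PBS, and no marker of any list was at 0 in every library. Several sums differed between treatments, and their part in the results below was not tested. In a mixed culture, fewer cells of a type cannot be told apart from less RNA per cell. The labels do not say whether the 2 libraries of a treatment came from separate cultures, so p-values measure only the spread between these libraries. The fit drew the spread of each gene toward a trend over all genes tested, so p-values do not rest on that gene's own spread alone. BMP2 replicate 1 held 2.10% and PBS replicate 1 held 1.31% of gene counts on models of ribosomal repeats, against 0.0702% to 0.0928% in the other 4 libraries, and results that change without both libraries are given with that value.

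With BMP2, the matrix-bound inhibitor Timp3 more than doubled in level, while the other expressed inhibitors Timp1 and Timp2, the proteases Adamts1 and Adamts5, and the gelatinase Mmp2 were lower than with PBS. With dorsomorphin added to BMP2, Timp3 was again above PBS, Adamts5 and Adamts1 were above both BMP2 and PBS, Timp2 was above BMP2 and overlapped with PBS, and Timp1 was lower still. None of the 4 metalloproteinases changed by more than 0.37 on the log2 scale in any comparison. Of the 10 genes, 9 passed the filter on low counts. Of these 9, 6 were called in BMP2 against PBS, 1 higher and 5 lower (edgeR quasi-likelihood test, adjusted p below 0.05), where 15.8% of all 14378 genes tested were called, 6.55% higher and 9.29% lower. Between BMP2+DM and BMP2, 5 of 9 were called, 4 higher and 1 lower, where 8.73% of all genes were called, 4.28% higher and 4.44% lower. Between BMP2+DM and PBS, 6 of 9 were called, 4 higher and 2 lower, where 20.9% of all genes were called, 9.38% higher and 11.5% lower. The 10 genes were chosen with earlier results of these data known, so their share of calls beside that of all genes carries no test. Calls are more frequent among well expressed genes. Among the 5226 genes with a mean level at or above that of Mmp3, the lowest of the 9, 25.4%, 14.9% and 32.2% were called in the same 3 comparisons. The median size of the log2 fold change was 0.42 over the 9 genes and 0.20 over all genes in BMP2 against PBS, 0.25 and 0.17 in BMP2+DM against BMP2, and 0.30 and 0.23 in BMP2+DM against PBS. The 3 comparisons share libraries, so their fold changes are given side by side and no relation between them is tested.

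**Figure D1:**
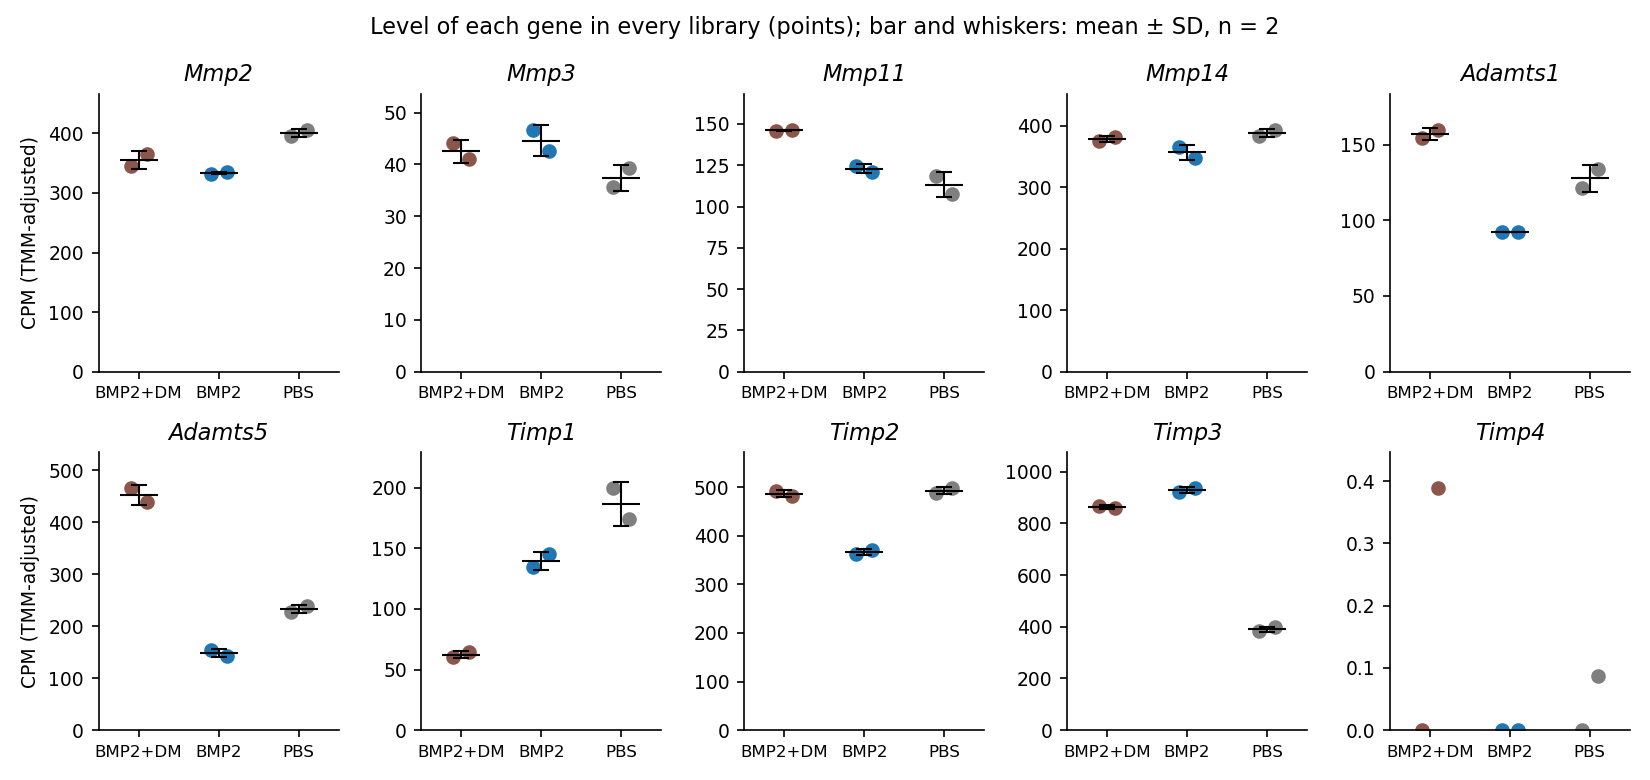
Level of each of the 10 genes in CPM (vertical axes, from 0) in the 2 libraries of BMP2+DM, BMP2 and PBS cells, with the mean and SD as a bar and whiskers (none drawn for Timp4). Timp3 lies at 859 CPM or above in all BMP2+DM and BMP2 libraries and at 397 CPM or below with PBS, Adamts5 is lowest with BMP2 and highest with BMP2+DM, and Timp1 is lowest with BMP2+DM.

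Timp3 encodes the inhibitor that is held in the extracellular matrix. It had 867 and 859 CPM with BMP2+DM, 920.1 and 935 CPM with BMP2, and 384 and 397 CPM with PBS. All 4 libraries with BMP2 were above both PBS libraries by a wide margin, and the 2 treatments with BMP2 lay close together. Timp3 was 2.38-fold higher in BMP2 than in PBS cells (log2 fold change 1.25 ± 0.05 SE, edgeR adjusted p = 3.58e-11) and 2.21-fold higher in BMP2+DM than in PBS cells (1.14 ± 0.05, adjusted p = 2.84e-11). The difference between BMP2+DM and BMP2 was −0.10 ± 0.05 on the log2 scale and did not pass (adjusted p = 0.237). In size, the BMP2 against PBS change ranked 540 of 14378 genes tested.

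Timp3 (mm10 chromosome 10, 86300372 to 86349506, plus strand) lies wholly inside the minus-strand gene Syn3, which encodes a synapsin, a protein of synaptic vesicles. Of 8144 exonic bases of Timp3, 1733 (21.3%) are also exonic in Syn3 on the other strand. Syn3 was listed at 379 and 354 CPM with BMP2+DM, 385 and 394 CPM with BMP2, and 164 and 177 CPM with PBS. Its count was between 41.2% and 44.4% of the Timp3 count in each of the 6 libraries. Syn3 was higher in BMP2 than in PBS cells by 1.19 ± 0.06 on the log2 scale (edgeR adjusted p = 1.05e-10) and higher in BMP2+DM than in PBS cells by 1.11 ± 0.06 (adjusted p = 1.50e-10). Its difference between BMP2+DM and BMP2 was −0.09 ± 0.05 and did not pass (adjusted p = 0.4). Whether reads were counted by strand is not stated in the sources used here, and the library protocol in the labels names no step that marks strand, so reads of the shared bases cannot be told apart between Timp3 and Syn3. Reads that the counting step assigned to no feature made up 49.7% to 50.15% of each file's total. The part of either in the result was not tested.

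**Figure D2:**
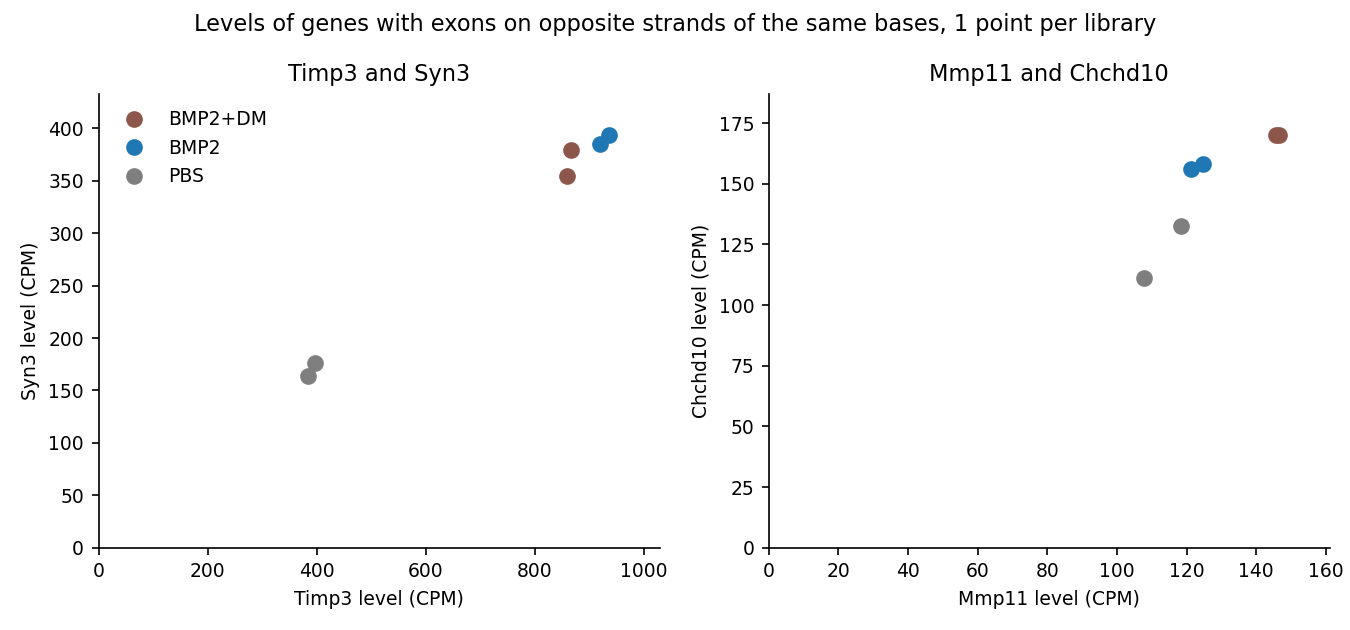
Level in CPM of Syn3 against Timp3 (left) and of Chchd10 against Mmp11 (right), pairs of genes with exons on opposite strands of the same bases, with 1 point per library coloured by treatment. Syn3 lies at a nearly constant proportion of Timp3 (41.2% to 44.4% of its count), while Chchd10 ranges from 103% to 129% of the Mmp11 count.

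Timp1 encodes a soluble inhibitor that cells secrete. It had 60.5 and 64.3 CPM with BMP2+DM, 135 and 145 CPM with BMP2, and 199.6 and 174 CPM with PBS. The 3 treatments did not overlap, and the order from low to high was BMP2+DM, BMP2, PBS. Timp1 was 1.34-fold lower in BMP2 than in PBS cells (log2 −0.42 ± 0.08, edgeR adjusted p = 0.0011). Without PBS replicate 1 and BMP2 replicate 1 together, that change was −0.26 and was no longer called (adjusted p = 0.263). With dorsomorphin it was lower still. Timp1 was 2.24-fold lower in BMP2+DM than in BMP2 cells (−1.17 ± 0.09, adjusted p = 6.96e-08) and at 0.334 times its level in PBS cells (−1.58 ± 0.08, adjusted p = 2.80e-10). Both calls held in each of the 15 alternatives tried, also against a minimum fold of 1.5. Timp1 (mm10 chromosome X, 20870166 to 20874735, plus strand) lies inside the synapsin gene Syn1 of the other strand, with which it shares no exonic base, and Syn1 had 4 to 7 counts per library.

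Timp2, which encodes the inhibitor that also assists the activation of MMP2, had 492 and 481 CPM with BMP2+DM, 362 and 371 CPM with BMP2, and 488 and 498 CPM with PBS. Both BMP2 libraries were below all others, and the BMP2+DM and PBS libraries overlapped. It was 1.34-fold lower in BMP2 than in PBS cells (log2 −0.43 ± 0.04, edgeR adjusted p = 1.67e-06) and 1.33-fold higher in BMP2+DM than in BMP2 cells (0.41 ± 0.04, adjusted p = 7.47e-06). Between BMP2+DM and PBS the change was −0.02 ± 0.04 (adjusted p = 0.813), and its sign turned when libraries were scaled by their size alone (0.04). Timp4, a TIMP known for its expression in the adult heart, was close to absent. It had 0 and 4 counts with BMP2+DM, 0 and 0 with BMP2, and 0 and 1 with PBS. A count of 0 in the BMP2 libraries allows a level of up to 0.273 and 0.286 CPM, for counting error only. Timp4 did not pass the filter on low counts and was not tested.

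**Figure D3:**
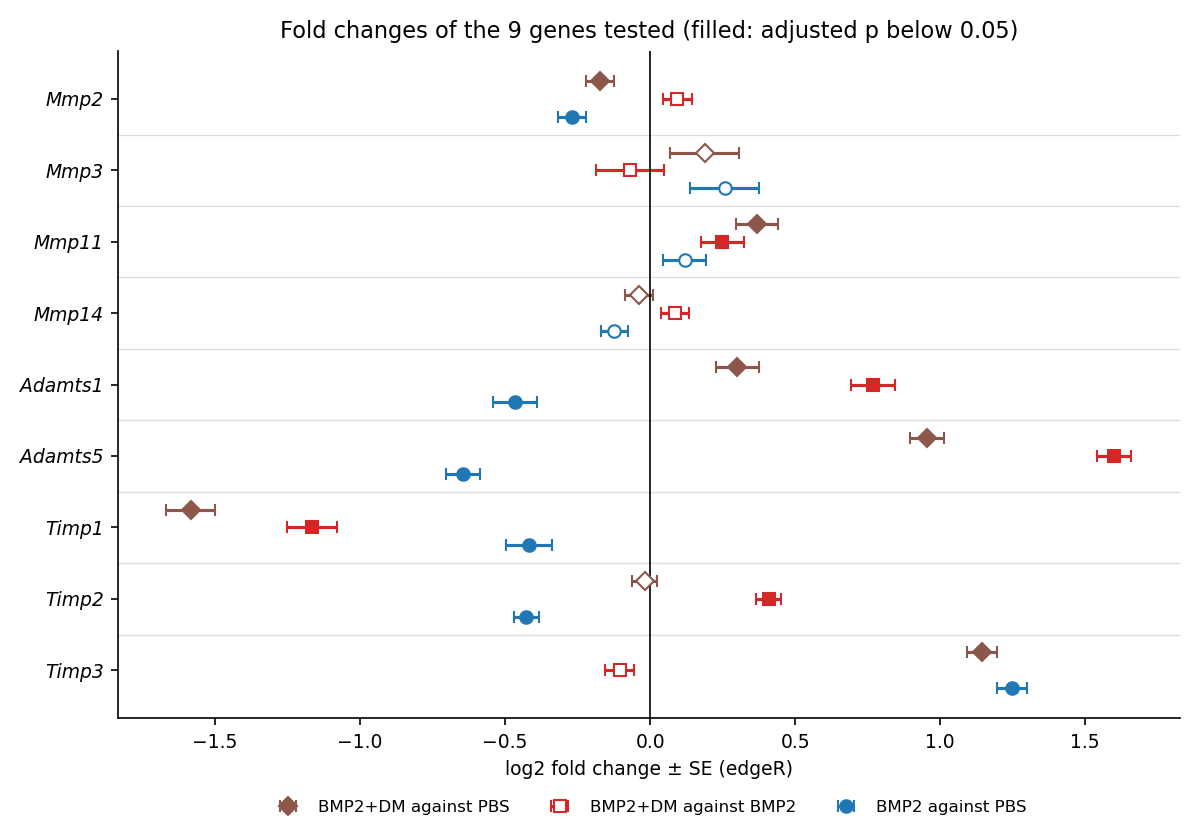
Log2 fold change ± SE (horizontal axis) of the 9 genes tested in BMP2+DM against PBS, BMP2+DM against BMP2 and BMP2 against PBS, with filled symbols where the edgeR adjusted p was below 0.05. Timp3 stands at 1.14 and 1.25 against PBS, Adamts5 at 1.60 for BMP2+DM against BMP2, and Timp1 is below 0 in all 3 comparisons.

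Adamts5 and Adamts1 encode proteoglycan-cleaving enzymes and lie near each other on the minus strand of chromosome 16 (85856173 to 85901828 and 85793827 to 85803113, mm10), with 53.1 kb and 1 other annotated gene between them. Adamts5 had 465 and 438 CPM with BMP2+DM, 155 and 143 CPM with BMP2, and 227 and 239 CPM with PBS. Adamts1 had 154 and 159.8 CPM with BMP2+DM, 92.2 and 92.4 CPM with BMP2, and 121 and 134 CPM with PBS. Both genes had the same order of treatments, with BMP2 lowest and BMP2+DM highest, and no overlap between treatments. In BMP2 against PBS, Adamts5 was 1.57-fold lower (log2 −0.65 ± 0.06, edgeR adjusted p = 4.23e-07) and Adamts1 was 1.38-fold lower (−0.47 ± 0.08, adjusted p = 0.00027). Adamts5 in BMP2+DM against BMP2 was 3.03-fold higher (1.60 ± 0.06, adjusted p = 8.27e-12), a size that ranked 258 among 14378 genes. Adamts1 was 1.70-fold higher (0.77 ± 0.08, adjusted p = 3.07e-06). Set against PBS, in BMP2+DM cells Adamts5 was 1.94-fold higher (0.95 ± 0.06, adjusted p = 1.18e-09) and Adamts1 was 1.23-fold higher (0.30 ± 0.07, adjusted p = 0.00696). The last call was lost without PBS replicate 1 (0.23, adjusted p = 0.109), without BMP2+DM replicate 2 (0.28, adjusted p = 0.0502), and without both ribosomal-repeat-rich libraries (0.23, adjusted p = 0.164). On the scale of CPM per kilobase of exon, Adamts5 was at 1.48 and 1.35 times the level of Adamts1 with BMP2+DM, 0.823 and 0.762 times with BMP2, and 0.92 and 0.876 times with PBS.

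Mmp2, which encodes a gelatinase, had 345 and 366 CPM with BMP2+DM, 332 and 334 CPM with BMP2, and 396 and 406 CPM with PBS. Both PBS libraries were above all others. Mmp2 was 1.20-fold lower in BMP2 than in PBS cells (log2 −0.27 ± 0.05, edgeR adjusted p = 0.000728), a call lost without both ribosomal-repeat-rich libraries (−0.28, adjusted p = 0.0996). In BMP2+DM against PBS it was lower by a smaller amount (−0.17 ± 0.05, adjusted p = 0.0154), and this call was lost without PBS replicate 2 (−0.16, adjusted p = 0.102), without BMP2+DM replicate 1 (−0.14, adjusted p = 0.115), without both ribosomal-repeat-rich libraries (−0.19, adjusted p = 0.117) and with scaling by library size alone (−0.12, adjusted p = 0.112). In BMP2+DM against BMP2 the change was 0.09 ± 0.05 and did not pass (adjusted p = 0.278). Mmp14 encodes the membrane-anchored protease that activates the MMP2 precursor. It had 375 and 382 CPM with BMP2+DM, 365 and 348 CPM with BMP2, and 384 and 393 CPM with PBS. Its changes were −0.12 ± 0.05 in BMP2 against PBS (adjusted p = 0.0911), 0.09 ± 0.05 in BMP2+DM against BMP2 (adjusted p = 0.32) and −0.04 ± 0.05 in BMP2+DM against PBS (adjusted p = 0.64, and 0.02 with scaling by library size alone), and none passed.

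Mmp3 encodes a stromelysin with a broad range of matrix substrates and was the least abundant metalloproteinase of the set. It had 44.1 and 41.0 CPM with BMP2+DM, 46.7 and 42.5 CPM with BMP2, and 35.6 and 39.2 CPM with PBS. Its changes were 0.26 ± 0.12 in BMP2 against PBS (edgeR adjusted p = 0.163), −0.07 ± 0.12 in BMP2+DM against BMP2 (adjusted p = 0.797) and 0.19 ± 0.12 in BMP2+DM against PBS (adjusted p = 0.301), and none passed. Mmp11 encodes a stromelysin that, unlike most of the family, is activated inside the cell by furin. It had 146 and 146 CPM with BMP2+DM, 125 and 121 CPM with BMP2, and 118 and 108 CPM with PBS. Both BMP2+DM libraries were above all others. Mmp11 was 1.29-fold higher in BMP2+DM than in PBS cells (log2 0.37 ± 0.07, adjusted p = 0.00138). Against BMP2 it was 1.19-fold higher (0.25 ± 0.07, adjusted p = 0.0443), a call that was lost when either BMP2 or either BMP2+DM library was left out, with changes from 0.23 to 0.27 and adjusted p from 0.124 to 0.216, without both ribosomal-repeat-rich libraries (0.27, adjusted p = 0.211), and with DESeq2 (adjusted p = 0.0736). In BMP2 against PBS it changed by 0.12 ± 0.07 (adjusted p = 0.317). Mmp11 shares 155 of 2778 exonic bases (5.58%) with the opposite-strand gene Chchd10, which encodes a mitochondrial protein. Chchd10 had 170.04 and 170.2 CPM with BMP2+DM, 158 and 156 CPM with BMP2, and 133 and 111 CPM with PBS, and was higher in BMP2+DM than in PBS cells by 0.48 ± 0.08 on the log2 scale (adjusted p = 0.000222). Reads of the shared bases cannot be told apart between them.

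Levels can be compared between genes only per length. The values that follow are in CPM per kilobase of annotated exon, and the length chosen changes the order. Timp3 shares 21.3% of its exonic bases with Syn3 and Mmp11 shares 5.58% with Chchd10, while Timp1 and Timp2 share none. The part of the shared bases in these levels was not tested. In BMP2+DM cells Timp1 averaged 70.2 ± 3.04 CPM per kilobase, behind Timp2 at 124.9 ± 1.91 and Timp3 at 106 ± 0.734 (SD, n = 2). In BMP2 cells Timp1 averaged 158 ± 8.39, Timp3 114 ± 1.33 and Timp2 94.1 ± 1.60 CPM per kilobase. In PBS cells Timp1 averaged 210.4 ± 20.3, Timp2 127 ± 1.80 and Timp3 48.0 ± 1.21 CPM per kilobase. With the longest coding transcript as the length, an alternative chosen after seeing the data, Timp3 was the highest inhibitor in BMP2+DM cells (183 ± 1.27 CPM per kilobase, against 131 ± 2.005 for Timp2 and 70.6 ± 3.06 for Timp1) and in BMP2 cells (196 ± 2.30, against 158 ± 8.43 for Timp1 and 98.8 ± 1.68 for Timp2). Timp1 was the highest in PBS cells under both lengths (212 ± 20.4 with the longest transcript, against 133 ± 1.89 for Timp2 and 82.7 ± 2.09 for Timp3). Of the proteases, Mmp2 averaged 105 ± 4.32, 98.8 ± 0.589 and 119 ± 2.06 CPM per kilobase of exon with BMP2+DM, BMP2 and PBS, and Mmp3 averaged 23.6 ± 1.23, 24.8 ± 1.63 and 20.8 ± 1.44. Timp1 made up 22.6% and 24.0% of the summed inhibitor level with BMP2+DM, 42.4% and 43.8% with BMP2, and 56.6% and 52.6% with PBS. Timp3 made up 35.4% and 35.0% with BMP2+DM, 31.6% and 30.8% with BMP2, and 11.9% and 13.1% with PBS. With the longest coding transcript, the Timp3 share was 47.7% and 47.3% with BMP2+DM, 43.8% and 42.8% with BMP2, and 18.5% and 20.3% with PBS, and the Timp1 share was 17.8% and 18.9% with BMP2+DM, 34.3% and 35.5% with BMP2, and 51.5% and 47.4% with PBS. Under both lengths the Timp1 share was lowest with BMP2+DM and highest with PBS, and the Timp3 share was lowest with PBS.

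**Figure D4:**
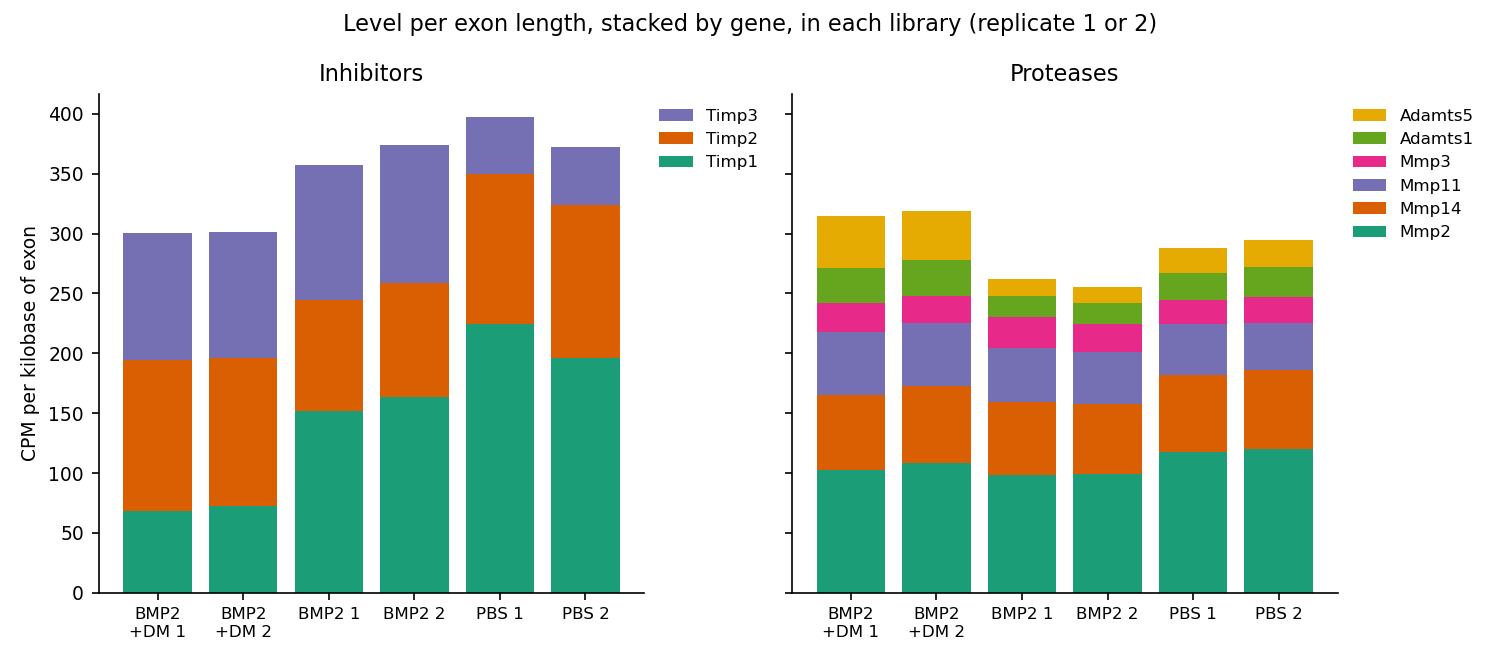
Stacked levels in CPM per kilobase of exon (vertical axis) of the inhibitors (left) and proteases (right) in each library, left to right BMP2+DM, BMP2 and PBS. The inhibitor stack is lowest with BMP2+DM (301 and 301) and its Timp1 part is smallest with BMP2+DM and largest with PBS, while the ADAMTS part of the protease stack is largest with BMP2+DM (72.3 and 70.7).

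The summed inhibitor level was 301 and 301 CPM per kilobase with BMP2+DM, 358 and 374 with BMP2, and 397 and 373 with PBS. The summed level of the 4 metalloproteinases was 242 and 248 CPM per kilobase with BMP2+DM, 231 and 225 with BMP2, and 244 and 247 with PBS. The summed level of the 2 ADAMTS genes was 72.3 and 70.7 CPM per kilobase with BMP2+DM, 31.7 and 30.7 with BMP2, and 43.9 and 47.5 with PBS. The ratio of summed inhibitor to summed protease RNA was 0.956 and 0.946 with BMP2+DM, 1.36 and 1.46 with BMP2, and 1.38 and 1.27 with PBS. With all exons as the length, both BMP2+DM libraries were below the other 4, and BMP2 and PBS libraries overlapped. With the longest coding transcript in place of all exons, the mean ratio was 0.976 ± 0.0106 with BMP2+DM, 1.38 ± 0.0656 with BMP2 and 1.16 ± 0.0607 with PBS (SD, n = 2). The BMP2 libraries then lay above the PBS libraries, so their overlap depended on the length chosen. These sums weigh RNA and not protein or enzyme activity, and they carry no test. The inhibitor sum includes Timp3, for which reads of the bases shared with Syn3 cannot be told apart.

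The genes with the pattern most like a gene of the set were sought for Adamts5 and Timp3, which had the smallest p over the 3 treatments. Likeness was the root mean square difference of centred log2 CPM over the 6 libraries, among 11089 genes whose mean log2 CPM was 2 or more. Predicted genes (symbols with a Gm number or Rik) and pseudogenes were left out of these 11089. For Adamts5 the closest were Myom2, a sarcomere M-band gene (difference 0.157), the matrix proteoglycan gene Prelp (0.181) and the adenylyl cyclase gene Adcy1 (0.189). Myom2 averaged 244 ± 8.04 CPM with BMP2+DM, 85.9 ± 9.60 CPM with BMP2 and 151 ± 6.01 CPM with PBS (SD, n = 2). For Timp3 the closest was the overlapping Syn3 (0.0377), followed by Engase (0.11) and Perm1 (0.124), a regulator of muscle mitochondria. Perm1 averaged 77.1 ± 4.65 CPM with BMP2+DM, 79.3 ± 3.59 CPM with BMP2 and 40.0 ± 0.404 CPM with PBS (SD, n = 2).

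Other proteases, their regulators and substrates were taken from 8 lists of 97 genes, of which 80 were tested. The lists were also chosen with earlier results of these data known, so their shares of calls carry no test. In BMP2 against PBS, 3 were called higher and 30 lower, together 41.2% where 15.8% of all genes were called, with a median log2 fold change of −0.32 against 0.00 for all genes. In BMP2+DM against BMP2, 13 were called higher and 17 lower (37.5% against 8.73% of all genes, median 0.02 against 0.00). In BMP2+DM against PBS, 8 were called higher and 38 lower (57.5% against 20.9% of all genes, median −0.33 against 0.01).

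**Figure D5:**
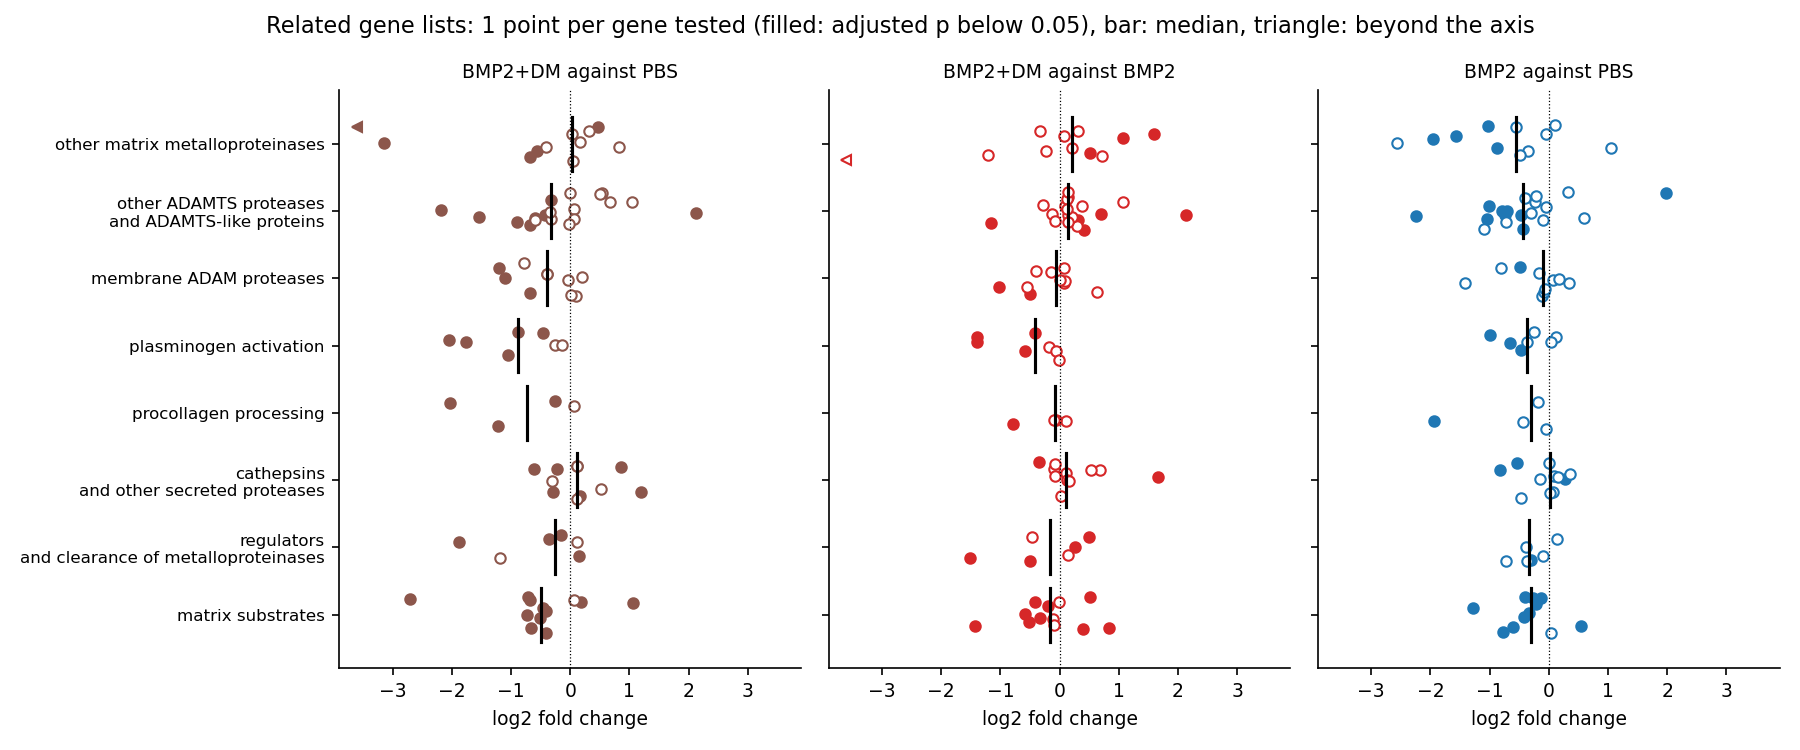
Log2 fold change (horizontal axis) of each tested gene of the 8 related lists in the 3 comparisons, with filled points for edgeR adjusted p below 0.05, bars at the list medians and triangles beyond the axis. Plasminogen activation genes have no called gene above 0 in any comparison, and the other metalloproteinases have a median of −0.56 in BMP2 against PBS and 0.21 in BMP2+DM against BMP2.

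Among the other matrix metalloproteinases, 11 of 18 were tested. In BMP2 against PBS 0 rose and 4 fell (median −0.56), in BMP2+DM against BMP2 3 rose and 0 fell (median 0.21), and in BMP2+DM against PBS 1 rose and 4 fell (median 0.03). Mmp16, a membrane-anchored enzyme, had 19.7 and 24.0 CPM with BMP2+DM, 10.7 and 10.1 CPM with BMP2, and 19.7 and 22.7 CPM with PBS, so that both BMP2 libraries were below all others. It was 2.03-fold lower in BMP2 than in PBS cells (edgeR adjusted p = 0.000423) and 2.10-fold higher in BMP2+DM than in BMP2 cells (adjusted p = 0.000667, and 0.0516 without both ribosomal-repeat-rich libraries). Mmp12, the macrophage elastase, had 6 and 11 counts with BMP2+DM, 21 and 20 with BMP2, and 111 and 79 with PBS. It was 3.87-fold lower in BMP2 than in PBS cells (adjusted p = 0.00103, and 0.169 without both ribosomal-repeat-rich libraries) and 8.89-fold lower in BMP2+DM than in PBS cells (adjusted p = 2.20e-05). The summed level of the leukocyte markers, given above, was also lowest with BMP2+DM and highest with PBS, but single markers did not all have this order. Of the tested markers, Adgre1 and Itgam had it in mean level. Lyz2 was lowest with BMP2, Csf1r was highest with BMP2, and Cd68 and C1qc were highest with BMP2+DM. The part of leukocytes in the Mmp12 result was not tested. Mmp23 was 1.84-fold lower in BMP2 than in PBS cells (adjusted p = 0.000287, and 0.109 without both ribosomal-repeat-rich libraries). Mmp15 was 1.43-fold and Mmp17 3.03-fold higher in BMP2+DM than in BMP2 cells (adjusted p = 0.00792 and 0.025). The Mmp15 call was lost without BMP2 replicate 1 (adjusted p = 0.0703), BMP2 replicate 2 (0.0502) or BMP2+DM replicate 2 (0.0803) and without both ribosomal-repeat-rich libraries (0.142). The Mmp17 call was lost without both of those (0.329), and it was kept only without BMP2 replicate 2 among the fits that left out 1 library.

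Of 23 other ADAMTS and ADAMTS-like genes, 19 were tested. In BMP2 against PBS 1 rose and 8 fell (median −0.44), in BMP2+DM against BMP2 4 rose and 1 fell (median 0.14), and in BMP2+DM against PBS 1 rose and 7 fell (median −0.33). Adamts8, another proteoglycan-cleaving member, had 11.5 and 11.4 CPM with BMP2+DM, 6.54 and 7.53 CPM with BMP2, and 30.3 and 36.1 CPM with PBS. It was 4.71-fold lower in BMP2 than in PBS cells (edgeR adjusted p = 7.28e-08) and 2.90-fold lower in BMP2+DM than in PBS cells (adjusted p = 2.45e-06), so that its BMP2+DM libraries lay below PBS where those of Adamts1 and Adamts5 lay above. Of the exonic bases of Adamts8, 10.6% are also exonic in a gene of the other strand. Adamtsl2, which encodes a protein related to ADAMTS enzymes but without a protease domain, had 14.7 and 17.3 CPM with BMP2+DM, 33.9 and 37.8 CPM with BMP2, and 73.0 and 72.1 CPM with PBS. Its order of treatments was that of Timp1, with a 2.03-fold lower level in BMP2 than in PBS cells (adjusted p = 6.42e-06) and a 2.24-fold lower level in BMP2+DM than in BMP2 cells (adjusted p = 1.68e-05). Adamts2, which trims procollagens, was 1.39-fold lower in BMP2 than in PBS cells (adjusted p = 0.000139). Of 10 genes of the membrane ADAM family, 0 rose in any comparison, and 1, 2 and 4 fell in BMP2 against PBS, BMP2+DM against BMP2 and BMP2+DM against PBS. Adam12 averaged 58.5 ± 9.37 CPM with BMP2+DM, 119 ± 10.3 CPM with BMP2 and 124.9 ± 3.56 CPM with PBS (SD, n = 2), and was 2.03-fold lower in BMP2+DM than in BMP2 cells (adjusted p = 3.25e-06).

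The plasminogen system makes plasmin, which activates several metalloproteinase precursors. Of 7 tested genes 3, 4 and 5 fell in BMP2 against PBS, BMP2+DM against BMP2 and BMP2+DM against PBS, and 0 rose (medians −0.37, −0.42 and −0.88). The urokinase gene Plau averaged 17.2 ± 0.0661 CPM in BMP2 cells and 34.4 ± 0.793 CPM in PBS cells (SD, n = 2 each, edgeR adjusted p = 0.000137, and 0.0578 without both ribosomal-repeat-rich libraries), and its receptor gene Plaur was 2.62-fold lower in BMP2+DM than in BMP2 cells (adjusted p = 0.000113). Of 6 tested regulators of metalloproteinases, 0 rose and 1 fell in BMP2 against PBS, 2 rose and 2 fell in BMP2+DM against BMP2, and 1 rose and 3 fell in BMP2+DM against PBS. Furin, the convertase that activates MMP11 and MMP14, averaged 132 ± 0.755 CPM with BMP2+DM, 186 ± 2.52 CPM with BMP2 and 169 ± 7.26 CPM with PBS (SD, n = 2), and was 1.41-fold lower in BMP2+DM than in BMP2 cells (adjusted p = 8.64e-05). The serine protease inhibitor gene Tfpi2 was 2.84-fold lower in BMP2+DM than in BMP2 cells (adjusted p = 3.94e-05). Of 4 tested genes of procollagen processing, 1, 1 and 3 fell and 0 rose in the same order of comparisons, with Tll1 3.83-fold lower in BMP2 than in PBS cells (adjusted p = 4.04e-05). The list of cathepsins and other secreted proteases has 11 genes and also holds the gene of a cathepsin inhibitor, Cst3. Of these 11 genes, 1 rose and 2 fell in BMP2 against PBS, 1 rose and 1 fell in BMP2+DM against BMP2, and 3 rose and 3 fell in BMP2+DM against PBS. Cst3 was among those that fell in BMP2 against PBS and in BMP2+DM against PBS. Dpp4, a dipeptidyl peptidase of the cell surface, averaged 13.7 ± 2.02 CPM with BMP2+DM, 4.34 ± 0.873 CPM with BMP2 and 5.99 ± 0.72 CPM with PBS (SD, n = 2), and was 3.16-fold higher in BMP2+DM than in BMP2 cells (adjusted p = 0.000299, and 0.0502 without both ribosomal-repeat-rich libraries). Cst3, the cathepsin inhibitor cystatin C, was 1.45-fold lower in BMP2 than in PBS cells (adjusted p = 2.34e-06).

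Of 12 matrix substrates, 1 rose and 10 fell in BMP2 against PBS (median −0.30), 3 rose and 6 fell in BMP2+DM against BMP2 (median −0.16), and 2 rose and 9 fell in BMP2+DM against PBS (median −0.49). The fibrillar collagen gene Col3a1 had 3690 and 3935 CPM with BMP2+DM, 2582 and 2728 CPM with BMP2, and 1764 and 1899 CPM with PBS, and was 1.45-fold higher in BMP2 than in PBS cells (edgeR adjusted p = 6.09e-07). Another fibrillar collagen gene, Col1a1, went the other way with dorsomorphin, being 1.49-fold lower in BMP2+DM than in BMP2 cells (adjusted p = 3.94e-08). The elastin gene Eln had 303 and 316 CPM with BMP2+DM, 184 and 162 CPM with BMP2, and 304 and 291 CPM with PBS. Its values had the arrangement of Timp2, with a 1.72-fold lower level in BMP2 than in PBS cells (adjusted p = 8.87e-08) and a 1.79-fold higher level in BMP2+DM than in BMP2 cells (adjusted p = 9.63e-08). Col1a1 and Col3a1 are also members of the fibroblast marker list.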

How the data were processed

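Polyadenylated RNA was measured in 6 libraries, 2 per treatment, and groups and replicate numbers come from the labels. Each library has 1 file, in which the authors deposited unnormalized read counts by symbol. The submitters' processing notes name mm10 and the tools STAR, HTSeq, Trimmomatic, FastQC and DESeq2. The sources used here give no versions, annotation or strand setting. The 5 summary lines of each file, which name no gene, held 53.8% to 54.2% of its total and were left out. GENCODE vM21 (GRCm38), which holds 97.5% of the symbols, gave positions and exon lengths.

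Of 32245 symbols, 11888 had no count, and the filterByExpr filter (minimum count 10, minimum total 15) left out 5979 more. All 6 libraries were fitted with group means in edgeR 4.0.16 (R 4.3.3, quasi-likelihood F test, TMM factors, 3 residual degrees of freedom, common biological coefficient of variation 0.0872), with Benjamini-Hochberg adjustment over 14378 genes and a threshold of 0.05. Each SE was obtained by dividing the size of the log2 fold change by √F. DESeq2 1.42.0 was an alternative. Simulated counts with known fold changes were used to check the fit. Replicates differed by more than sampling noise, with a chi-square per degree of freedom of 3.88 for BMP2+DM, 17.5 for BMP2 and 13.6 for PBS. This sum over genes includes the ribosomal-repeat models, whose share of counts differed widely between the replicates of BMP2 (2.10% and 0.0928%) and of PBS (1.31% and 0.0702%). The larger values for BMP2 and PBS hold that difference and do not measure noise over all genes alike.

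Of each related list and comparison, the called genes with the smallest p (up to 3) could be named, and the text gives most of them. One gene that this rule names is not reported here. The 10 genes and the lists were chosen with earlier results of these data known.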

Additional observations from a re-analysis of the deposited data

How the results depend on the processing

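The 27 fold changes of the 9 genes tested were each recomputed under 15 alternatives. Of these 405 values, 377 kept their direction and call, 26 lost a call and 2 changed sign. Both sign changes came with scaling by library size alone in BMP2+DM against PBS, for Mmp14 (0.0181) and Timp2 (0.0368), neither of them called. Of 930 recomputed values of the other named genes, 99 lost a call and 0 changed sign.

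Against a minimum fold of 1.5, 1 gene of the set stayed higher (Timp3) and 0 lower in BMP2 against PBS. In BMP2+DM against BMP2, 1 stayed higher (Adamts5) and 1 lower (Timp1). In BMP2+DM against PBS, 2 stayed higher (Timp3 and Adamts5) and 1 lower (Timp1). All other calls of the set were lost, among them those of Timp2, Adamts1 and Adamts5 in BMP2 against PBS. The related lists then had 0 higher and 5 lower, 2 and 5, and 2 and 15 calls, and all genes 56 higher and 235 lower, 38 and 60, and 95 and 329. Without PBS replicate 1 and BMP2 replicate 1 together, BMP2 against PBS compares 1 library with 1 and takes its spread from the BMP2+DM pair. It then called 3 genes of the set and 18 of the related lists lower, and 171 of all genes higher and 403 lower. BMP2+DM against BMP2 called 4 genes of the lists higher, and 137 of all genes higher and 176 lower. BMP2+DM against PBS called 1 gene of the set lower, 2 of the lists higher and 25 lower, and 533 of all genes higher and 855 lower. Scaling by library size alone left 1 gene of the set lower in BMP2+DM against PBS.

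Leaving out 1 library at a time gave, for all genes in BMP2 against PBS, 475 to 1028 higher and 843 to 1442 lower, with the lowest counts without PBS replicate 2. Counts were over 1.5 times lower also without PBS replicate 1 (524 and 885), BMP2 replicate 1 (570 higher) and BMP2 replicate 2 (551 higher). The ranges in BMP2+DM against BMP2 were 314 to 528 and 356 to 553, lowest without BMP2 replicate 1, with 328 and 393 without BMP2 replicate 2 and 405 lower without BMP2+DM replicate 2. For BMP2+DM against PBS they were 742 to 1298 and 1085 to 1630, lowest without PBS replicate 2, with 829 higher without PBS replicate 1. For the set the ranges were 1 to 1 higher and 5 to 5 lower, 3 to 4 and 1 to 1, and 3 to 4 and 1 to 2 in the 3 comparisons, and for the related lists 2 to 3 and 22 to 32, 6 to 12 and 14 to 16, and 3 to 7 and 31 to 38. List genes called higher numbered 6 and 7 without BMP2 replicates 1 and 2 and 8 and 7 without BMP2+DM replicates 1 and 2 in BMP2+DM against BMP2, and 4, 5 and 3 without PBS replicate 1 and BMP2+DM replicates 1 and 2 in BMP2+DM against PBS. The set had 1 lower gene there without PBS replicate 2 or BMP2+DM replicate 1. The single genes of the set that lost a call under an alternative other than the minimum fold are named in the text, and the cause was not tested.

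Deviations of same-numbered libraries from their group means correlated at 0.0248 (BMP2 and PBS), −0.0376 (BMP2+DM and BMP2) and −0.0227 (BMP2+DM and PBS). The labels do not say whether same-numbered libraries shared a culture or a batch, and correlations over all genes cannot decide it. PBS replicate 1 and BMP2 replicate 1 were both rich in ribosomal-repeat reads. The replicate block gave 932 higher and 1329 lower calls over all genes in BMP2 against PBS, 601 and 625 in BMP2+DM against BMP2, and 1327 and 1633 in BMP2+DM against PBS. With it, 0 calls of the set changed and 1 call of the other named genes was lost, that of Pcolce2 in BMP2+DM against BMP2 (adjusted p = 0.0544). The low counts of Timp4 limit any statement on it, and no length of transcript in use was measured.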

Other observations

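Some genes outside the rule for named genes were looked up after their values were seen. Vcan, which encodes the proteoglycan versican, a substrate of ADAMTS1 and ADAMTS5, had 175 and 164 CPM with BMP2+DM, 245 and 238 CPM with BMP2, and 231 and 237 CPM with PBS. It was lower in BMP2+DM than in BMP2 cells (log2 −0.51 ± 0.06, edgeR adjusted p = 2.21e-05), and its change in BMP2 against PBS was 0.04 ± 0.06 (adjusted p = 0.695). Vcan was also lower in BMP2+DM than in PBS cells (−0.47 ± 0.06, adjusted p = 1.56e-05). Both Vcan calls were lost against a minimum fold of 1.5. Acan, which encodes the proteoglycan aggrecan, had 10 and 24 counts with BMP2+DM, 41 and 54 with BMP2, and 136 and 137 with PBS. Acan was lower in BMP2+DM than in PBS cells (−2.70 ± 0.36, edgeR adjusted p = 2.09e-05), also against a minimum fold of 1.5 (adjusted p = 0.000254). It was lower in BMP2+DM than in BMP2 cells (−1.42 ± 0.38, adjusted p = 0.0264) and in BMP2 than in PBS cells (−1.28 ± 0.31, adjusted p = 0.00781), and both calls were lost without both ribosomal-repeat-rich libraries (adjusted p = 0.165 and 0.256). Single omissions also ended them, the first without either PBS library (0.0507 and 0.0563), BMP2 replicate 2 (0.176) or BMP2+DM replicate 1 (0.2), and the second without PBS replicate 2 (0.113) or BMP2 replicate 1 (0.0878). Reck, a membrane-anchored inhibitor of metalloproteinases, had 30.7 and 30.4 CPM with BMP2+DM, 21.6 and 21.4 CPM with BMP2, and 27.9 and 28.6 CPM with PBS. Its change was 0.51 ± 0.14 in BMP2+DM against BMP2 (adjusted p = 0.0249) and −0.39 ± 0.13 in BMP2 against PBS (adjusted p = 0.0549). The call in BMP2+DM against BMP2 was lost without any 1 of the BMP2 and BMP2+DM libraries (adjusted p from 0.083 to 0.119), without both ribosomal-repeat-rich libraries (0.216) and with DESeq2 (0.0648).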
